A study of Mus musculus with 6 samples.

Results

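The genes that encode the CDK inhibitors, p53, Mdm2 and Rb were compared between penile tumors and normal penis tissue of mice. The 10 genes, of 24063 gene symbols in the count tables, were chosen by name: the INK4 genes Cdkn2a, Cdkn2b, Cdkn2c and Cdkn2d, the CIP/KIP genes Cdkn1a, Cdkn1b and Cdkn1c, and Trp53, Mdm2 and Rb1. Tumors came from 3 SA mice (PB-Cre+ Smad4L/L ApcL/L) and normal tissue from 3 WT C57BL/6 mice, and all mice were 5-month-old males. The study describes the normal tissue as penile epithelium, and its samples are labeled WT penis. Cdkn2a, nearly absent from WT penis, was higher in every SA tumor. The fitted difference between the groups was 7.80 on the log2 scale and rests on few WT counts. Cdkn2b and Cdkn1c were also higher, while Cdkn2c, Cdkn2d and Cdkn1b were lower. The calls of Cdkn1c, Cdkn2d and Cdkn1b were lost when certain single samples were left out. Cdkn1a, Trp53, Mdm2 and Rb1 did not pass the test.

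In SA mice, Cre recombinase from the probasin promoter, which is androgen-responsive and active in prostate and penile epithelium, deletes the floxed Smad4 and Apc alleles, and squamous cell carcinoma of the penis forms without a carcinogen. Smad4 carries signals of the TGF-β family into the nucleus, and Apc holds β-catenin down. WT penises carried no floxed allele and no Cre. The strain background of the SA mice is not given in the sources used here, so that a strain difference and the deletions cannot be told apart. Likewise, what comes with tumor tissue and what comes with the deletions cannot be told apart.

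Progression from G1 into S phase depends on cyclin D with Cdk4 or Cdk6 and on cyclin E with Cdk2, which phosphorylate Rb and release E2F factors that drive genes of DNA replication. INK4 proteins bind Cdk4 and Cdk6 and keep them from cyclin D, and CIP/KIP proteins bind assembled cyclin-CDK complexes. Cdkn2a has a second product, ARF, which binds Mdm2, the ubiquitin ligase of p53, and so raises p53, and p53 in turn induces Cdkn1a and Mdm2. In squamous epithelium, loss of Cdkn2a or p53 function is a known step of many carcinomas.

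The sequences of Cdkn2a are shown because its products share exons, which limits what the counts can tell apart. Cdkn2a lies on the minus strand of chromosome 4 (mm10). Its p16INK4a transcript, NM_001040654, starts with an exon at chr4:89281986-89282192, and its ARF transcript, NM_009877, with one at chr4:89294334-89294653 in the GENCODE annotation. Each of these is spliced to the same exon 2, chr4:89276645-89276985, which is read in different frames: the first full codon begins 0 bases into exon 2 in p16INK4a and 2 bases into it in ARF. The 2 junctions are given below as spliced, from the GENCODE transcript sequences. The last 30 bases of exon 1 are in lower case and the first 30 bases of exon 2 in capitals.
p16INK4a junction: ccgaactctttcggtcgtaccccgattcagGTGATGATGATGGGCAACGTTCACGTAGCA
ARF junction: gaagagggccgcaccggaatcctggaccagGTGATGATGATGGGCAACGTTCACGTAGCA

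The promoters of Cdkn2a and Cdkn2b are shown because both genes lie side by side and both rose. They are RefSeq windows on GRCm38.p6, from 250 bases before to 50 bases after the start. The ARF window, chr4:89294570-89294869, is on the minus strand, as are the windows of p16INK4a, chr4:89282143-89282442, and Cdkn2b, chr4:89310983-89311282. The starts of ARF and p16INK4a are 12427 bases apart. Between the ARF start and the nearer end of Cdkn2b, where its transcript ends, lie 11669 bases. The motifs searched on both strands were TTTCCCGC and TTTGGCGC for E2F, and CTTTGAT and CTTTGAA for TCF/LEF, the partners of β-catenin. Capitals mark an E2F match.
Cdkn2a ARF promoter: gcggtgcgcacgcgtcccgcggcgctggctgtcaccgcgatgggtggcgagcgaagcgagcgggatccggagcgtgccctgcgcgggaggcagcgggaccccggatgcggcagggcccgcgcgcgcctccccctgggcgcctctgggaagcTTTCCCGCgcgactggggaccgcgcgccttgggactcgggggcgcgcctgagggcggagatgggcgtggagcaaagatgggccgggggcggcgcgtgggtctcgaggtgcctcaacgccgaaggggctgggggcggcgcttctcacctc
Cdkn2a p16INK4a promoter: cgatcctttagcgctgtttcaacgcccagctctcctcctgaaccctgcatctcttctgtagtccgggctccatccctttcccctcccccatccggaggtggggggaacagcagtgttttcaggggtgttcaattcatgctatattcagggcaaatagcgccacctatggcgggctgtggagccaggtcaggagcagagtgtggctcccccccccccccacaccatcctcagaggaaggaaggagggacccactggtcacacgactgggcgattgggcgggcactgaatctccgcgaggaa
Cdkn2b promoter: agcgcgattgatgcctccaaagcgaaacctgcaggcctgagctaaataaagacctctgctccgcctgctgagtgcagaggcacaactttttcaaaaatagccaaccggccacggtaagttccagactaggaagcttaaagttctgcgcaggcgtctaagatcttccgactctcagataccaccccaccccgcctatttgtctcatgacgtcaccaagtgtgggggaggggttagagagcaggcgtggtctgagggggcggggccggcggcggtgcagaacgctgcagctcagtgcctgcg

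The ARF window held 1 E2F match, at position 152, and 45 CpG pairs, against a median of 7 CpG pairs over 32851 RefSeq promoters. The p16INK4a window held 12 CpG pairs and the Cdkn2b window 18, and neither held an E2F match. An E2F match was found in 1.56% of all promoters and a TCF/LEF match in 8.65%. None of the windows of the 8 listed genes that the table covers held these TCF/LEF letters. A match is a description of the letters and not a measured site. The promoter of Cdkn1a at chr17:29090729-29091028, plus strand, is 1 of 2 windows of this gene, and it is shown because Cdkn1a is the best known target of p53 and because, of these 2 windows, only this one held a match to the p53 response element. Its capitals mark the 20 bases that match with at most 1 mismatch, a match found in 0.0883% of all promoters.
Cdkn1a promoter: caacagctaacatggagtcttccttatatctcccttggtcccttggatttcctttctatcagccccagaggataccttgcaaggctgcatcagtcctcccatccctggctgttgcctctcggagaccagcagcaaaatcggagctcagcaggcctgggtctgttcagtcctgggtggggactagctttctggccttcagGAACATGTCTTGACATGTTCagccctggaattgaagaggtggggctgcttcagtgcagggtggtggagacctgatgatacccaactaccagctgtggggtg

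Libraries held between 23828283 and 110509147 counts in the gene rows, and SA replicate 3 held 4.42 times the median count of the other libraries. A level of 3 counts, taken as the floor, equals 0.0243 CPM in the deepest and 0.137 CPM in the shallowest library, where CPM is the count per 1e+06 after TMM normalization. This floor covers counting error only. Of the deleted genes, Smad4 averaged 39.6 ± 5.61 CPM across SA tumors against 67.8 ± 5.92 across WT penises (mean ± SD, n = 3), with a log2FC of -0.77 (SE 0.128, adjusted p = 0.00114), which did not pass with library totals (adjusted p = 0.0152). Apc was at 214 ± 33.4 and 79.6 ± 15.1 CPM (mean ± SD, n = 3), with a log2FC of 1.43 (SE 0.168, adjusted p = 0.000185). Whole-transcript counts from bulk tissue do not resolve a deleted exon, so that the higher Apc count does not check its label.

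The log2 fold change (log2FC) of SA tumor over WT penis is given with its standard error (SE). A gene is called higher or lower, or said to have risen or fallen, at an adjusted p under 0.01 in edgeR's quasi-likelihood F-test over the 16336 genes that passed the filter on low counts, and all 10 listed genes passed it. Groups of 3 samples allow an exact permutation p of 0.1 at the lowest, so p-values come from this model. Each sample is a separate mouse. Of the 10 genes, 3 were higher, beside 20.1% of all genes tested, and 3 were lower, beside 17.5%. Only Cdkn2a also passed the fold threshold of the study, a log2FC of 2 or more in either direction. Together the thresholds were passed by 13.0% of all genes, 9.41% higher and 3.59% lower. All 3 SA tumors lay above all 3 WT penises in 5 of the 10 genes (32.7% of all genes) and below them in 3 (30.7%), which makes 8 genes without overlap (63.4% of all genes). The median log2FC was 0.13 over the 10 genes and 0.029 over all. With library totals as the only scaling, 5 of the 10 genes were higher and 1 was lower, beside 5248 higher and 1806 lower genes in all, against 3283 and 2865 with TMM. That scaling moved the median of all genes to 0.31.

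**Figure D1:**
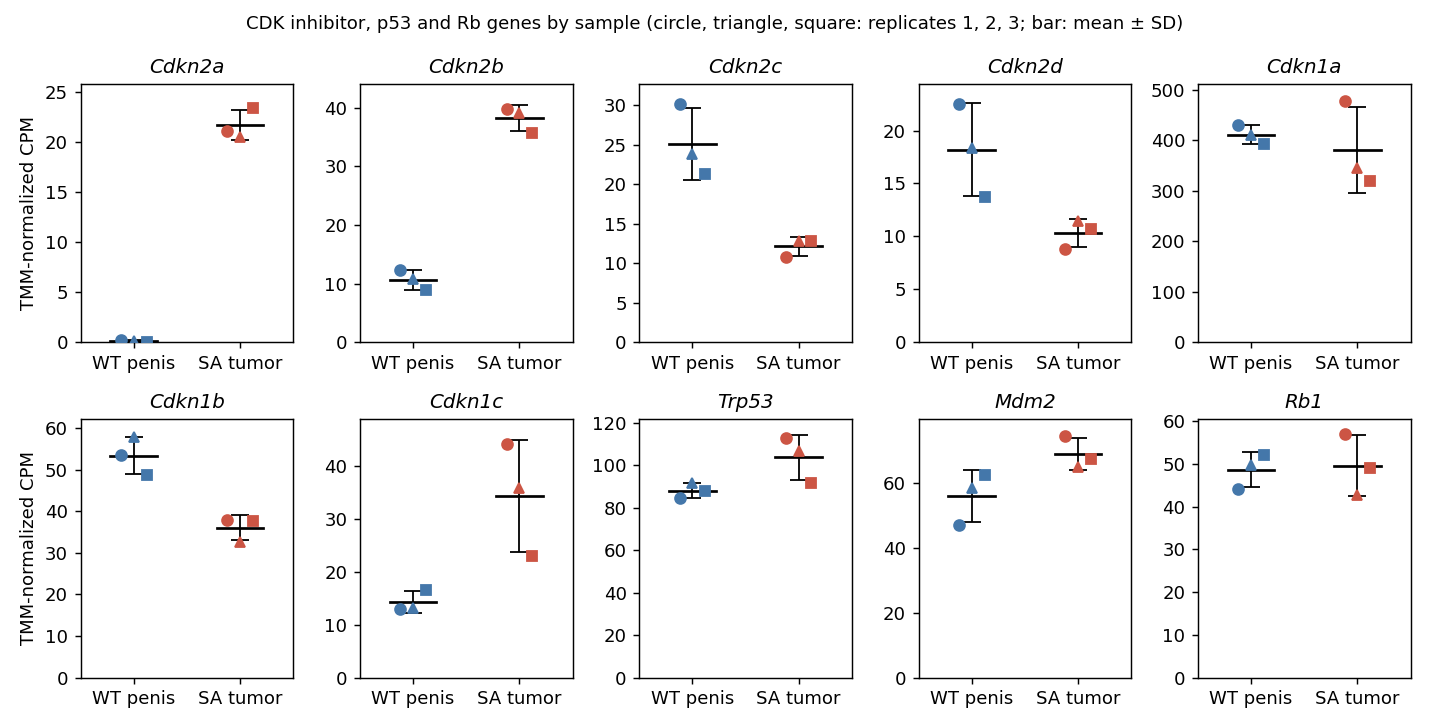
TMM-normalized CPM (linear axis from 0) of each of the 10 genes in the 3 WT penises and 3 SA tumors, with 1 panel a gene. Circles, triangles and squares are replicates 1, 2 and 3, long bars are means and error bars are SD. The groups do not overlap in 8 panels and overlap in those of Cdkn1a and Rb1, and in Trp53 they are separated by less than 1 CPM.

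Cdkn2a (NM_009877, chr4:89274473-89294619) was measured at 21.1, 20.5 and 23.4 CPM in SA replicates 1, 2 and 3, and at 0.181, 0.100 and 0 CPM in WT replicates 1, 2 and 3. The SA tumors were within a narrow band, and the WT penises were near the floor. The values rest on 567, 620 and 2882 counts in SA tumors and on 4, 3 and 0 counts in WT penis. Its log2FC was 7.80 (SE 0.387, adjusted p = 2.78e-06). Over the 7 counts of the WT libraries together, the SA mean of 21.7 ± 1.53 CPM (SD, n = 3) was 229 times the WT level, with a 95% counting interval of 111 to 570 from the exact Poisson limits of those 7 counts. The gene was called in all 17 alternative analyses, with log2FC values from 7.28 to 8.49.

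The p16INK4a and ARF transcripts of Cdkn2a have a row each, and reads in the shared exons were counted in both. In SA replicates 1, 2 and 3 the ARF row held 567, 620 and 2882 counts, and the p16INK4a row 478, 522 and 2596. The ARF row was thus ahead by 89, 98 and 286 counts. A difference between the rows is a net difference of their own exons, and the level of either product cannot be read from it. In WT penis the p16INK4a row held 3, 2 and 0 counts.

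Cdkn2b (NM_007670, chr4:89306289-89311032), which encodes p15INK4b, an inhibitor induced by TGF-β, was measured at 39.9, 39.1 and 35.7 CPM in the SA tumors and at 12.3, 10.8 and 8.93 CPM in WT penis. The lowest SA tumor was well above the highest WT penis. The rise was 3.58-fold (log2FC 1.84, SE 0.141, adjusted p = 1.95e-05) and was called in all 16 alternatives. Mtap, the neighbour on the far side of the locus that salvages methionine, rose as well, from 16.3 ± 1.93 to 60.0 ± 12.8 CPM (mean ± SD, n = 3), with a log2FC of 1.87 (SE 0.171, adjusted p = 4.81e-05). Dmrta1, the neighbour of Cdkn2b, had a log2FC of 0.30 (SE 0.278, adjusted p = 0.392) and did not pass.

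Cdkn2c (NM_001301368, chr4:109660876-109666756), which encodes p18INK4c, was measured at 10.8, 12.8 and 12.8 CPM in the SA tumors and at 30.2, 23.9 and 21.3 CPM in WT penis. All SA tumors lay below all WT penises. The fall of 1.05 on the log2 scale (SE 0.160, adjusted p = 0.000769) was called in all 17 alternatives. The second transcript row of Cdkn2c, NM_007671, held 50.7, 54.4 and 58.3% of the count of the first in SA tumors, and 65.9, 57.5 and 63.0% in WT penis, so that the shares overlap. In the other genes with a second row, Cdkn2a apart, it held at least 96.8%.

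Cdkn2d (NM_009878, chr9:21288459-21291421), which encodes p19INK4d, was measured at 8.84, 11.4 and 10.7 CPM in the SA tumors and at 22.5, 18.4 and 13.8 CPM in WT penis. The SA tumors were lower throughout, with WT replicate 3 closest to them. Its log2FC was -0.82 (SE 0.197, adjusted p = 0.00822). This call was narrow: it held in 8 of 16 alternatives and, of the 6 analyses that left out a sample, only without WT replicate 3. The adjusted p was up to 0.0311 in the other 5, 0.0147 with upper quartile scaling and 0.0425 with library totals.

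The makeup of INK4 gene RNA is given in TPM, a level per transcript length, as shares within a sample. Cdkn2a enters as a gene by its ARF row, so that its share is not that of p16INK4a. Cdkn2a and Cdkn2b together made up 80.7, 76.6 and 77.5% of the summed INK4 TPM in the SA tumors and 21.7, 23.1 and 23.2% in WT penis. The groups did not overlap. Cdkn2c and Cdkn2d held the rest, which was most of it in WT penis and the smaller share in SA tumors. The summed level of the 4 INK4 genes in CPM was 80.5 to 83.9 in SA tumors and 44.0 to 65.2 in WT penis.

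**Figure D2:**
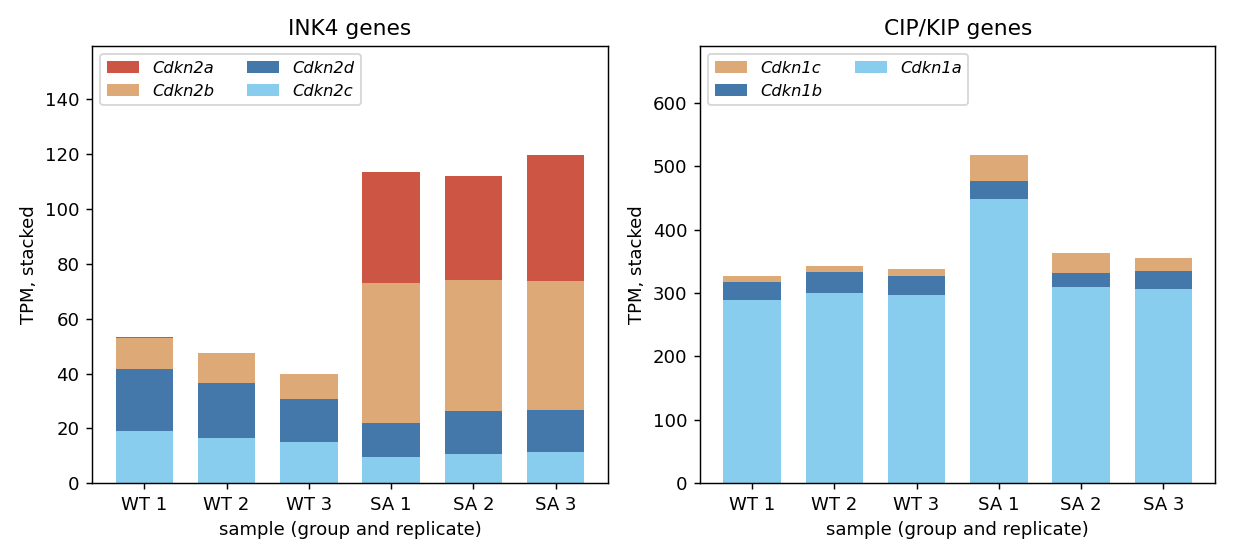
Stacked TPM (linear axis from 0, per transcript length) of the INK4 genes in the left panel and the CIP/KIP genes in the right, with 1 bar for each of the 3 WT and 3 SA samples. Cdkn2a and Cdkn2b make up over 76% of the INK4 bar in each SA tumor and under 24% in each WT penis, and Cdkn1a makes up most of every CIP/KIP bar. TPM is scaled to the total of each library, so that bar heights are not compared between the groups.

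Of the CIP/KIP genes, Cdkn1a (NM_007669, chr17:29090979-29100722), which encodes p21, was measured at 479, 345 and 320 CPM in the SA tumors and at 431, 410 and 393 CPM in WT penis. SA replicate 1 was the highest and SA replicates 2 and 3 were the lowest of all samples, so that the groups overlapped. The coefficient of variation was 22.4% among SA tumors and 4.67% among WT penises. Its log2FC was -0.11 (SE 0.155, adjusted p = 0.579), and it turned to 0.18 with library totals and to 0.0029 without SA replicate 3. Cdkn1a was the most abundant of the 10 genes in every sample, at 64.3 to 71.1% of the summed TPM of the 7 inhibitors in SA tumors and at 76.2 to 78.4% in WT penis. An annotated transcript model on the opposite strand overlaps its exons by 273 bases.

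Cdkn1b (NM_009875, chr6:134920401-134925525), which encodes p27, was measured at 37.9, 32.6 and 37.6 CPM in the SA tumors and at 53.6, 57.9 and 48.8 CPM in WT penis. Every SA tumor was below every WT penis. Its log2FC was -0.57 (SE 0.111, adjusted p = 0.00288). The call held in 12 of 16 alternatives. Those without it included library totals (-0.28, adjusted p = 0.0571) and the analyses without SA replicate 2 (adjusted p = 0.0103) and without WT replicate 2 (adjusted p = 0.0164). Beside 20.1% higher and 17.5% lower of all genes tested, 1 of the 5 ubiquitin ligase subunits that act on p27 or on cyclin E rose and none fell. This was Cks1b, with a log2FC of 0.63 (SE 0.155, adjusted p = 0.00901), which did not pass without SA replicate 1, SA replicate 2, WT replicate 2 or WT replicate 3. Its partner Skp2, which recognizes p27, was at 0.61 (SE 0.180, adjusted p = 0.0197).

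Cdkn1c (NM_001161624, chr7:143458339-143461059), an imprinted gene that encodes p57, was measured at 44.2, 35.8 and 23.1 CPM in the SA tumors and at 13.1, 13.1 and 16.7 CPM in WT penis. All SA tumors were above all WT penises, and they spread widely among themselves. The change was 2.40-fold (log2FC 1.26, SE 0.234, adjusted p = 0.00218). It did not pass without SA replicate 2 (adjusted p = 0.0113), WT replicate 1 (adjusted p = 0.0147) or WT replicate 2 (adjusted p = 0.0123). Cdkn1c was highest in SA replicate 1, where the summed level of 5 fibroblast markers was lowest, at 970 CPM against 2458 and 3106 in SA replicates 2 and 3 and 3683 to 4009 in WT penis. The part of stromal cells in the spread of Cdkn1c was not tested. An antisense gene, Gm44732, shares 625 bases of exon with Cdkn1c, and the strand setting of the count is not given in the sources used here.

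Trp53 (NM_001127233, chr11:69580348-69591873) was measured at 113, 107 and 91.8 CPM in the SA tumors and at 84.7, 91.7 and 87.8 CPM in WT penis. The groups did not overlap, but SA replicate 3 and WT replicate 2 were almost level. Its log2FC was 0.24 (SE 0.104, adjusted p = 0.0877). Mdm2 (NM_010786, chr10:117688875-117710758) was measured at 74.6, 65.1 and 67.5 CPM in the SA tumors and at 47.0, 58.5 and 62.7 CPM in WT penis. The SA tumors were again just above, with a log2FC of 0.30 (SE 0.125, adjusted p = 0.0729). Both genes passed only with library totals, at 0.52 (adjusted p = 0.00312) for Trp53 and 0.58 (adjusted p = 0.00644) for Mdm2.

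Rb1 (NM_009029, chr14:73192858-73325951) was measured at 56.9, 42.8 and 49.2 CPM in the SA tumors and at 44.2, 49.9 and 52.1 CPM in WT penis. The highest and the lowest of the 6 samples were both SA tumors. Its log2FC was 0.027 (SE 0.128, adjusted p = 0.873), and its sign turned without SA replicate 1 (-0.085) and without WT replicate 1 (-0.050). Exons of Lpar6 and Rcbtb2 on the opposite strand overlap those of Rb1 by 408 and 488 bases.

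**Figure D3:**
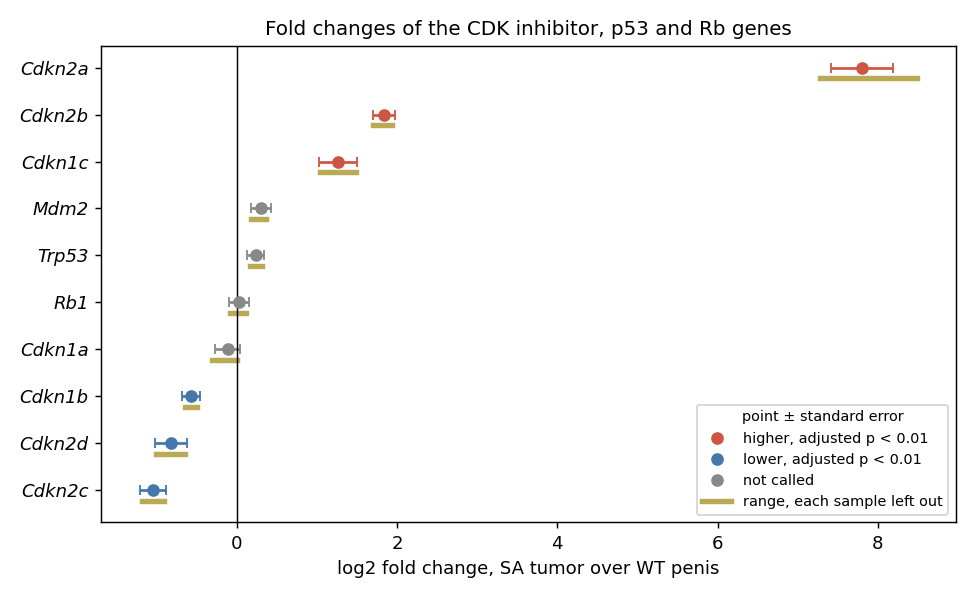
Log2 fold change of SA tumor over WT penis for the 10 genes, as points with bars of 1 SE, and a thick line for the range over the 6 analyses that each leave out a sample. Cdkn2a lies at 7.80, apart from the other 9, which lie between -1.05 and 1.84, and only the ranges of Cdkn1a and Rb1 cross 0. With library totals Cdkn1a is at 0.18.

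The genes around this core were described from lists of partners and targets. Beside the counts of these and later lists, 20.1% of all genes tested were higher and 17.5% lower. With library totals 5248 genes were higher and 1806 lower in all, and the median log2FC of all genes was 0.31. Of the other pocket proteins, relatives of Rb, Rbl1 (p107) rose from 30.7 ± 4.93 to 48.7 ± 4.81 CPM (mean ± SD, n = 3), with a log2FC of 0.66 (SE 0.142, adjusted p = 0.00449). The adjusted p of Rbl1 was between 0.0104 and 0.0133 without SA replicate 1, SA replicate 3, WT replicate 1 or WT replicate 3. Rbl2 (p130) was at -0.27 (SE 0.105, adjusted p = 0.0601), and at 0.017 with library totals. Of 10 E2F and DP factors, 4 rose and none fell, with a median log2FC of 0.31 (6 and none with library totals). The atypical repressors E2f7 and E2f8 were at 1.15 (SE 0.209, adjusted p = 0.00194) and 0.91 (SE 0.104, adjusted p = 0.00016). The activator E2f3 was at 0.94 (SE 0.128, adjusted p = 0.000395), and E2f6, which represses without binding pocket proteins, at 0.87 (SE 0.119, adjusted p = 0.000431).

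Of 9 G1 cyclins and CDKs, 2 rose and 1 fell, with a median log2FC of 0.24. Ccne1, which encodes cyclin E1, rose from 3.76 ± 0.858 to 24.6 ± 7.27 CPM (mean ± SD, n = 3). All SA tumors were several-fold above the highest WT penis. The log2FC of 2.70 (SE 0.267, adjusted p = 7.51e-05) passed the fold threshold as well. Ccnd2, which encodes cyclin D2, fell from 1038 ± 163 to 333 ± 21.7 CPM (mean ± SD, n = 3), with a log2FC of -1.64 (SE 0.137, adjusted p = 3.07e-05). Cdk6, a kinase that INK4 proteins bind, rose with a log2FC of 1.22 (SE 0.282, adjusted p = 0.00656) but passed in only 1 of the 6 analyses without a sample, that without SA replicate 2. Its partner kinase Cdk4 was at 0.44 (SE 0.113, adjusted p = 0.0111) and Ccnd1, cyclin D1, at 0.45 (SE 0.182, adjusted p = 0.0672), and these 2 were chosen after their values were seen.

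Of 18 E2F target genes of DNA replication, 1 rose, 1 fell and 16 were not called, with a median log2FC of 0.10. With library totals 5 rose and 1 fell. The subunits of ribonucleotide reductase, which makes deoxyribonucleotides, went apart. Rrm2 rose from 29.2 ± 1.63 to 52.0 ± 5.41 CPM (mean ± SD, n = 3), with a log2FC of 0.83 (SE 0.112, adjusted p = 0.000388), and Rrm1 fell from 189 ± 7.17 to 100.2 ± 4.47 CPM (mean ± SD, n = 3), with a log2FC of -0.92 (SE 0.0880, adjusted p = 6.24e-05). Of 6 proliferation markers, 2 rose and none fell (4 and none with library totals). The summed level of the 6 was 450 to 502 CPM in SA tumors and 224 to 369 in WT penis. The 2 that rose with TMM were Mki67 at 0.76 (SE 0.170, adjusted p = 0.00572) and Bub1 at 0.93 (SE 0.204, adjusted p = 0.00494). Mki67 lost the call without SA replicate 2, SA replicate 3 or WT replicate 2, and Bub1 without SA replicate 1, SA replicate 3, WT replicate 2 or WT replicate 3.

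Of 20 p53 target genes, 8 rose and 2 fell, beside 20.1% and 17.5% of all genes tested, with a median log2FC of 0.18. Cdkn1a and Mdm2, also targets of p53 but not in this list, did not pass. Gadd45a, a stress-induced gene of growth arrest, averaged 28.3 ± 0.893 CPM across SA tumors against 8.26 ± 1.64 across WT penises (mean ± SD, n = 3), with a log2FC of 1.78 (SE 0.160, adjusted p = 4.48e-05). The receptor gene Eda2r followed at 1.68 (SE 0.226, adjusted p = 0.000386), the nuclease gene Aen at 1.36 (SE 0.122, adjusted p = 4.29e-05), and Pmaip1, which encodes the BH3 protein Noxa, at 0.98 (SE 0.171, adjusted p = 0.00158). Bax, Ccng1, Phlda3 and Tnfrsf10b also rose. Sesn1, an inhibitor of mTORC1, fell by 1.93 on the log2 scale (SE 0.135, adjusted p = 1.25e-05). Perp, a p53 and p63 target that encodes a desmosomal protein, fell by 1.30 (SE 0.116, adjusted p = 4.26e-05). Many of these genes also respond to other factors.

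Of 10 p53 relatives and regulators, 1 rose and 1 fell, with a median log2FC of 0.027 (3 and 1 with library totals). Trp73 rose from 15.0 ± 2.89 to 36.2 ± 2.94 CPM (mean ± SD, n = 3), with a log2FC of 1.27 (SE 0.157, adjusted p = 0.00024). Trp63, a marker and regulator of basal keratinocytes, fell from 456 ± 26.7 to 259 ± 34.7 CPM (mean ± SD, n = 3), with a log2FC of -0.82 (SE 0.123, adjusted p = 0.000712).

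Of 15 Polycomb and other regulators of the INK4 locus, 2 rose and 5 fell, with a median log2FC of 0.13. The split was 6 and 4 with library totals, and 4 and 4 with upper quartile scaling. Polycomb complexes are known to hold the locus silent. Of Polycomb repressive complex 1, Cbx7 fell from 60.5 ± 3.75 to 19.9 ± 4.24 CPM (mean ± SD, n = 3), with a log2FC of -1.60 (SE 0.161, adjusted p = 7.95e-05). Cbx8 was at -1.01 (SE 0.160, adjusted p = 0.000919) and Ring1 at -0.76 (SE 0.119, adjusted p = 0.000861), and Rnf2 also fell. The core subunit gene Bmi1 went the other way, at 0.72 (SE 0.126, adjusted p = 0.00156). Tbx2, a T-box repressor of Cdkn2a and Cdkn1a, rose from 15.9 ± 1.15 to 82.7 ± 19.9 CPM (mean ± SD, n = 3), with a log2FC of 2.37 (SE 0.175, adjusted p = 1.57e-05).

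**Figure D4:**
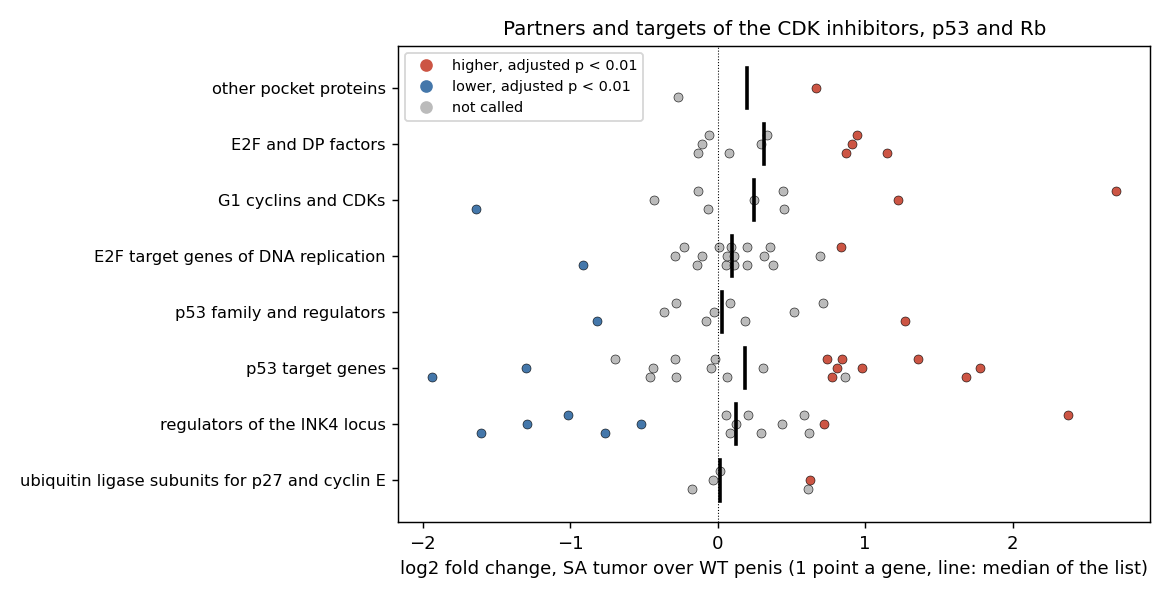
Log2 fold change of SA tumor over WT penis with 1 point a gene for 8 lists of partners and targets, colored by call at an adjusted p under 0.01, with a black line at the median of each list. The medians lie between 0.012 and 0.31, and p53 target genes hold 8 called higher and 2 called lower.

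The order of the 10 genes by TPM, a level per transcript length, was not the same in SA tumors and WT penis. In SA tumors it was Cdkn1a at 354 ± 81.6 TPM, Trp53 at 98.4 ± 9.16, Cdkn2b at 48.7 ± 2.26, Cdkn2a at 41.4 ± 4.15, Mdm2 at 39.6 ± 3.56, Cdkn1c at 31.3 ± 9.53, Cdkn1b at 26.7 ± 3.00, Rb1 at 19.1 ± 3.10, Cdkn2d at 14.4 ± 1.69 and Cdkn2c at 10.6 ± 1.03 (mean ± SD, n = 3). The ranges of neighbours overlapped from Cdkn2a down to Cdkn1b and were apart elsewhere. In WT penis it was Cdkn1a at 295 ± 5.40 TPM, Trp53 at 64.8 ± 5.83, Cdkn1b at 30.5 ± 2.74, Mdm2 at 25.0 ± 5.01, Cdkn2d at 19.5 ± 3.58, Cdkn2c at 16.8 ± 2.00, Rb1 at 14.5 ± 2.07, Cdkn2b at 10.5 ± 1.07, Cdkn1c at 10.1 ± 1.99 and Cdkn2a at 0.133 ± 0.125 (mean ± SD, n = 3). Neighbours from Cdkn1b to Rb1 overlapped in range, as did Cdkn2b and Cdkn1c. TPM is scaled to the total of each library and is used here only for the order within a group and for shares within a sample.

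The summed levels of cell type markers differed between the groups. The summed level of 6 keratinocyte markers was 20613 to 25883 CPM in SA tumors and 58342 to 65924 in WT penis, with Krt10, Krt1, Krt5 and Trp63 lower and none higher, Trp63 being counted among the p53 relatives too. Krt10 and Krt1 were the highest of these on average, at 6370 and 6578 CPM in SA tumors and 24977 and 20309 in WT penis. Krt14, at 5666 and 7939 CPM, overlapped between the groups and was not called (adjusted p = 0.0504). Cdh1, the epithelial cadherin, was at 0.045 (SE 0.107, adjusted p = 0.748), and at -0.030 without SA replicate 1. All 6 smooth muscle markers fell, and their sum was 35.5 to 124 CPM in SA tumors and 1538 to 2056 in WT penis. The WT samples, described by the study as epithelium, thus held RNA of these muscle genes. Leukocyte markers summed to 1499 to 2581 CPM and 121 to 198 CPM, with 2 of the 6 tested higher, S100a8 at 4.09 (SE 0.322, adjusted p = 4.53e-05) and S100a9 at 4.86 (SE 0.387, adjusted p = 6.11e-05). These 2 genes of neutrophils and stressed keratinocytes made up most of that sum in SA tumors, at 783 ± 230 and 1048 ± 289 CPM (mean ± SD, n = 3). Ptprc, at 1.60 (SE 0.435, adjusted p = 0.0187), and Itgam, at 1.19 (SE 0.369, adjusted p = 0.0304), were not called, though every SA tumor lay above every WT penis. Csf1r and Cd3e overlapped between the groups and were not called. With library totals 3 of the leukocyte markers were higher. Endothelial markers summed to 146 to 247 CPM and 254 to 280 CPM, with 1 of 5, Pecam1, lower, and 0 of 5 lower with library totals. Of 5 fibroblast markers, Dcn was lower. In bulk tissue, fewer cells of a type and less RNA per cell cannot be told apart, and the part of these shifts in the changes of the 10 genes was not tested.

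Genes whose pattern over the 6 samples lay nearest to that of Cdkn2a and of Cdkn2c, the members with the largest rise and fall, were searched among 13813 genes that averaged 100 counts or more. Likeness was the root mean square distance of centred log2 CPM values, and it is a description. Nearest to Cdkn2a were Wnt7a, a Wnt ligand gene, at a distance of 0.276, the uncharacterized 1700066N21Rik at 0.340 and the histamine receptor gene Hrh3 at 0.365. Wnt7a averaged 25.1 ± 3.73 CPM across SA tumors against 0.0825 ± 0.0914 across WT penises (mean ± SD, n = 3). Similarly, 1700066N21Rik and Hrh3 averaged 0.356 and 0.0524 CPM across WT penises, where Cdkn2a too was near the floor. The distances to Cdkn2a thus rest in WT penis on few counts and on the prior count of 2 used for the logs. These genes reached the mean of 100 counts through the SA tumors. Nearest to Cdkn2c were Spef1 at 0.0625, the mitochondrial creatine kinase gene Ckmt1 at 0.0722 and the semaphorin gene Sema4b at 0.0746. Sema4b was at 67.6 ± 3.08 and 143 ± 16.9 CPM (mean ± SD, n = 3).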

How the data were processed

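Stranded paired-end RNA-seq was performed on tumors from 3 SA mice and on tissue described as normal epithelium from 3 WT mice. Tophat alignment to mm10, FastQC, HTSeq counting and DESeq2 testing were done by the authors, and versions are not given in the sources used here. The deposited files hold, per RefSeq transcript, a raw count and the FPKM and TPM that the authors derived from it. FPKM was used only to derive transcript lengths and TPM only for levels per length.

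The row with the highest mean count represented each symbol. The counts were fitted in edgeR 4.0.16 (R 4.3.3): filterByExpr (minimum count 10, minimum total 15), TMM, robust quasi-likelihood fit, F-test and Benjamini-Hochberg adjustment over 16336 genes. The standard error is the log2 fold change divided by the square root of F. Alternatives were DESeq2 1.42.0, voom of limma 3.58.1, RLE, upper quartile and library-total scaling, no filter, a mean of at least 50 counts, a replicate block, each sample left out in turn, the sum of the transcript rows or every row, and the deepest library thinned to the median of the others. The scripts were tested on simulated data. Text names all 10 genes, the deleted genes, up to 4 called genes with the largest changes in each direction of each list, any gene of a list of at most 6, and 3 nearest patterns. Some genes that this rule covers are not reported here. The members and lists were chosen with earlier results of these data known.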

Additional observations from a re-analysis of the deposited data

How the results depend on the processing

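Over all genes, library totals gave 5248 higher and 1806 lower genes, and for the 10 genes 5 higher, 1 lower and 2 higher past the fold threshold. With the replicate number as a block, 1 of the 10 was lower, since Cdkn2d (adjusted p = 0.0190) and Cdkn1b (adjusted p = 0.0108) did not pass, and 2809 genes were higher and 2446 lower in all. Same-numbered samples did not deviate together (correlations of -0.13, -0.10 and 0.024), and SA replicates 1 and 2 correlated best with another number, so the numbers were not taken as pairs. Leaving out each sample gave 2361 to 3260 higher and 2055 to 2894 lower genes, 1391 to 1614 and 529 to 710 past the fold threshold, and among the 10 genes 2 to 3 higher, 1 to 3 lower, 1 to 1 past the fold threshold upward and 0 to 0 downward. Only 1 of the 10 was lower without SA replicate 2 or without WT replicate 2. Signs turned with library totals for Cdkn1a (0.18) and Rbl2 (0.017), and over the analyses that left out a sample for Cdkn1a (-0.31 to 0.0029), Rb1 (-0.085 to 0.12) and Cdh1 (-0.030 to 0.12). The cause was not tested. Without a filter the median of all genes was 0.11. Of 768 alternative values of 48 of the other named genes, 732 kept their direction and side of the threshold. Some named genes, such as Bax, Tnfrsf10b, Rnf2, Krt10 and Pecam1, were not among these 48. The few WT counts leave the size of the Cdkn2a change known only roughly. Its counting interval holds no variation between mice, so that it does not bound the change.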

Other observations

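Cdkn1c lies in an imprinted cluster on chromosome 7, and of 9 neighbours in that region 1 rose and 3 fell in SA tumors, with a median log2FC of -0.013. With library totals 3 rose and 2 fell, with a median of 0.27, and with upper quartile scaling the median was 0.046. Kcnq1, a potassium channel gene whose intron holds the imprinting centre and the antisense transcript Kcnq1ot1, averaged 15.7 ± 6.76 CPM across SA tumors against 0.541 ± 0.184 across WT penises (mean ± SD, n = 3), with a log2FC of 4.85 (SE 0.416, adjusted p = 3.61e-05). Ascl2, a transcription factor gene and Wnt target of intestinal stem cells, was at 1.11 ± 0.375 and 6.50 ± 1.47 CPM (mean ± SD, n = 3), with a log2FC of -2.49 (SE 0.305, adjusted p = 0.00023). Slc22a18 was at -0.96 (SE 0.164, adjusted p = 0.00142). The tetraspanin gene Cd81 was at -0.68 (SE 0.113, adjusted p = 0.00116), and at -0.40 with library totals (adjusted p = 0.0137). Neighbours thus moved in both directions beside the rise of Cdkn1c, and the counts do not tell the parental alleles apart.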
